A study of Homo sapiens with 8 samples.

Results

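The mRNA levels of the proteasome were followed in A375 cells, a human melanoma cell line, across the 4 groups of an array experiment on HSP90 inhibition and HSF1 knockdown. The set holds 45 genes for the subunits, assembly chaperones and activators of the proteasome, chosen by symbol. Of these, 40 had a probe set assigned to that gene alone, out of 19775 such genes on the array, and all 40 passed the filter on low signal. PSMA6 and PSME2 were covered only by probe sets that also name a neighbouring gene, and PSMC5, PSMD7 and PSMD13 were not analysed here.

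Each group had 2 HG-U133 Plus2 arrays, given below in the order first and second. Control cells carried a non-targeting hairpin (shNTC) and received 0.1% DMSO for 3 h, either without or with Doxycycline, which switches on the hairpin. The other groups carried a hairpin against HSF1 (shHSF1, named sh1999 in the titles) and received 100 nM NVP-HSP990, an HSP90 inhibitor, for 3 h, again without or with Doxycycline. These are called DMSO controls, Doxycycline controls, NVP-HSP990 cells and, with hairpin and inhibitor together, cells after the knockdown. The submitters' protocol gives 100 ng/mL Doxycycline for 3 d for all lines, while the sample titles distinguish cells without and with it, and the titles were followed. Every cell with NVP-HSP990 was a shHSF1 cell and every cell with DMSO a shNTC cell, so the inhibitor and the hairpin line cannot be told apart, and HSF1 knockdown without the inhibitor was not analysed here. The lines carry stably introduced, inducible hairpins. Nothing in the labels shows that both arrays of a group are from different cultures, so p-values measure only the spread between these arrays.

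The proteasome degrades proteins tagged with ubiquitin. Its 20S core is a barrel of stacked rings, in which the alpha subunits form the gate and the beta subunits hold the proteolytic sites, and the 19S particle on top binds, unfolds and feeds in the substrate through a base of ATPases and a lid. HSF1 is the transcription factor of the heat shock response, and inhibitors of HSP90 are known to activate it. Coordinated transcription of proteasome genes is known to run mainly through another factor, NFE2L1 (NRF1), which acts at antioxidant response elements when proteasome activity falls short.

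The targeted gene was checked first. HSF1 had MAS5 signals of 38.2 and 47.3 in DMSO controls, 36.6 and 47.9 in Doxycycline controls, 99 and 42.5 under NVP-HSP990, and 5.5 and 7.3 after the knockdown. The 4 arrays of shHSF1 cells did not overlap, and the knockdown difference was -1.87 (SE 0.29, 95% interval -2.51 to -1.23) on the log2(signal + 16) scale used for every difference here (limma, adjusted p = 0.00754). After the knockdown HSF1 lay below the array medians of 10.9 and 13.5, and the size of its difference moved with the amount added, to -3.17 with 1 and -0.90 with 64, and to -0.97 with all its probe sets averaged. The HSF1 call was lost with only the arrays compared (limma, adjusted p = 0.0652) and in the t-test named in the study's methods (adjusted p = 0.472). Of the melanocyte lineage markers, MITF, SOX10 and S100B were measured on these arrays, while PMEL, MLANA, TYR and TYRP1 lay near 0. S100B differed by -1.03 with the knockdown (limma, unadjusted p = 0.00582, adjusted p = 0.105). The summed signal of 5 fibroblast markers was 599.8 to 613.8 in DMSO controls, 490.3 to 600.2 in Doxycycline controls, 636.3 to 636.7 under NVP-HSP990 and 882.2 to 927.1 after the knockdown. LUM carried the higher sum, with 450.9 and 429.7 before and 756.3 and 708.2 after the knockdown (limma, adjusted p = 0.0385). COL1A1, DCN and PDGFRB had knockdown estimates of -0.38, -0.15 and 0.31 and were not called. The sum of the 4 hepatocyte markers measured was 53.1 to 86.9, 77.4 to 79.2, 73.1 to 95.7 and 29.8 to 39.6 in the same order of groups, and SERPINA1 among them differed by -1.31 in the cells after the knockdown against the Doxycycline controls (limma, adjusted p = 0.0381). The colon epithelium, lymphocyte and macrophage markers lay near 0. The part of these markers in the values below was not tested. The ratio of 3-prime to 5-prime ACTB signal, a measure of RNA quality and amplification, was 4.73 to 18.9 in 7 arrays and 46.8 in the second Doxycycline control.

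None of the 40 proteasome genes passed the test in any of the 5 comparisons (limma, adjusted p under 0.05 over 12672 genes). With HSF1 knockdown under NVP-HSP990, 0 of 40 were called, where 2.84% of all genes tested were. With NVP-HSP990 against DMSO, 0 of 40 were called beside a background of 0.221%, and with Doxycycline in shNTC cells 0 of 40 beside 0%. The combination, which sets cells after the knockdown against the Doxycycline controls, gave 0 of 40 beside 5.83%. The interaction, in which the Doxycycline difference of the DMSO-treated shNTC line is subtracted from that of the inhibited shHSF1 line, gave 0 of 40 beside 0.789%.

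At an unadjusted p under 0.05 limma marked 0 proteasome genes with the knockdown (background 15.3%), 0 with NVP-HSP990 (4.96%), 0 with Doxycycline (2.41%), 2 in the combination (19.5%) and 0 in the interaction (10.6%). The methods' t-test, run on the first 4 comparisons, marked 1 with the knockdown (11.2% of all genes), 0 with NVP-HSP990 (5.52%), 1 with Doxycycline (4.64%) and 2 in the combination (10.5%) before adjustment. After adjustment it called 0% of all genes in each of these 4, so its 0 proteasome genes say nothing about them. Proteasome genes had a median log2 difference of 0.016 with the knockdown, where all genes tested had 0.0015. With NVP-HSP990 the medians were -0.038 and 0.0096, with Doxycycline 0.021 and -0.0064, in the combination -0.061 and 0.014, and in the interaction -0.044 and 0.0023.

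The intervals show what sizes these arrays leave room for. With the knockdown, the 95% interval of 40 of 40 proteasome genes lay within a 2-fold difference in either direction, as did 86.4% of all genes tested, and that of 32 of 40 lay within 1.5-fold (36.9% of all genes). For NVP-HSP990 against DMSO the counts were 40 within 2-fold and 34 within 1.5-fold, beside 93.9% and 48.6% of all genes. The estimates spanned -0.24 to 0.30 with the knockdown and -0.38 to 0.17 with NVP-HSP990. The median size of the difference was 0.052 for the proteasome genes and 0.19 for all genes with the knockdown, and 0.089 and 0.13 with NVP-HSP990, with median standard errors of 0.19 and 0.20. All genes were not matched to the proteasome genes for signal.

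**Figure D1:**
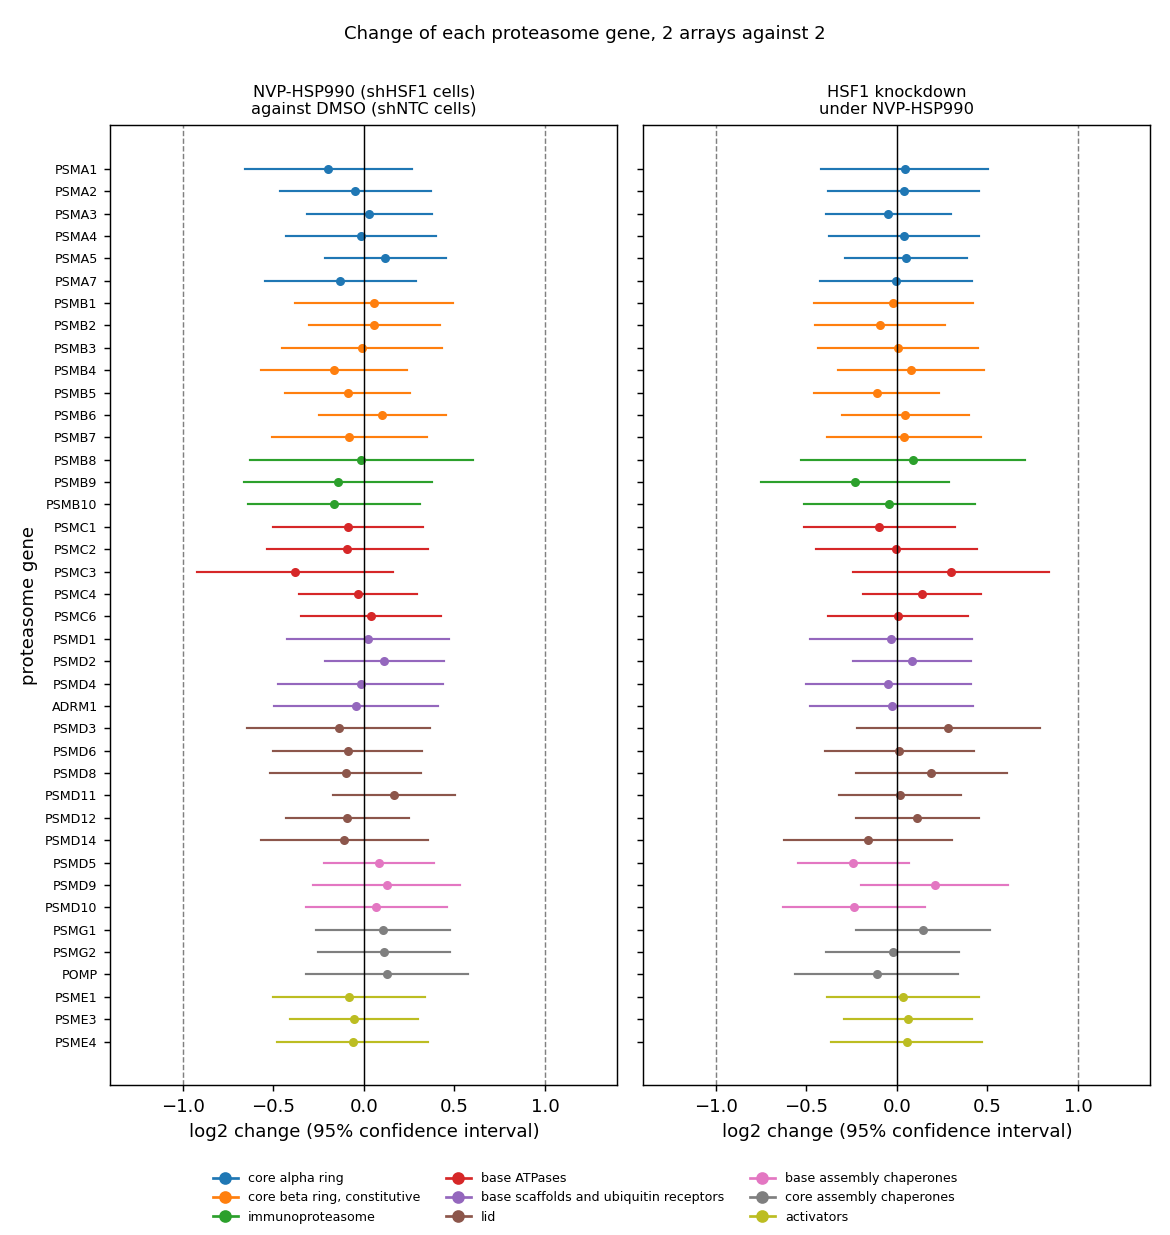
Log2 difference of each of the 40 proteasome genes (points) with its 95% confidence interval from limma (lines), for the NVP-HSP990 cells against the DMSO controls (left) and for HSF1 knockdown under NVP-HSP990 (right), 2 arrays against 2, coloured by class, with dashed lines at a 2-fold difference. Every interval includes 0, and all 40 lie within the dashed lines on both sides.

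**Figure D2:**
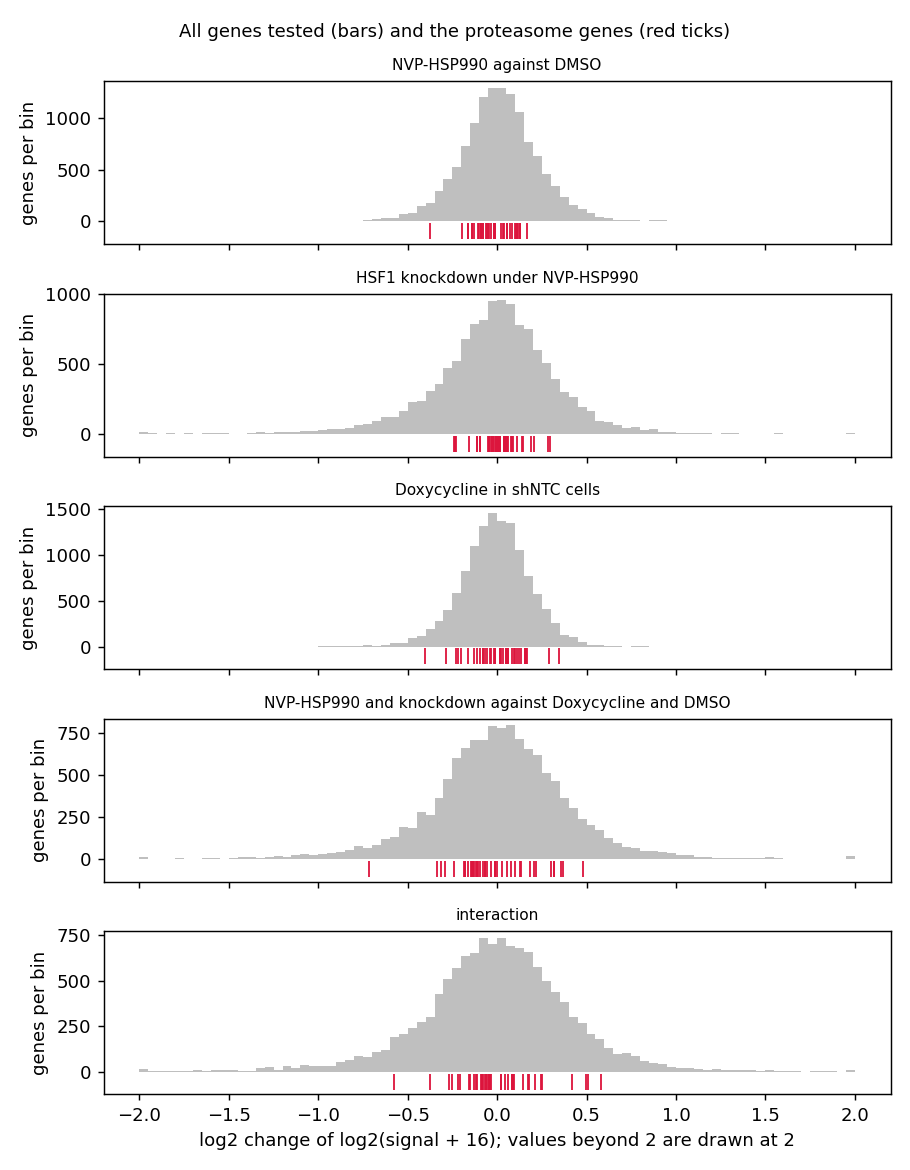
Log2 difference of all 12672 genes tested (grey bars, genes per bin) and of the 40 proteasome genes (red ticks) in each of the 5 comparisons, with values beyond 2 drawn at 2. The proteasome genes lie in the central part of each distribution, and PSMB9 at -0.72 in the combination is the lowest tick of any panel.

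Promoters of the genes discussed most below are shown for the letters that HSF1 and NFE2L1 are known to favour, from 250 bases before to 50 bases after the RefSeq start (GRCh38.p14). PSMD5 had the lowest difference with the knockdown and PSMC3 the highest, PSMB9 had the lowest in the combination, and ZFAND2A was the one gene of the pathway outside the set that was called. Capitals mark a two-unit heat shock element (GAANNTTC or TTCNNGAA), an antioxidant response element (TGACNNNGC or GCNNNGTCA) or a CCAAT box (CCAAT or ATTGG). The windows are PSMD5 at chr9:120842873-120843172, minus strand, PSMC3 at chr11:47426390-47426689, minus strand, PSMB9 at chr6:32853942-32854241, plus strand and ZFAND2A at chr7:1160147-1160446, minus strand, each printed along the gene's own strand.
PSMD5: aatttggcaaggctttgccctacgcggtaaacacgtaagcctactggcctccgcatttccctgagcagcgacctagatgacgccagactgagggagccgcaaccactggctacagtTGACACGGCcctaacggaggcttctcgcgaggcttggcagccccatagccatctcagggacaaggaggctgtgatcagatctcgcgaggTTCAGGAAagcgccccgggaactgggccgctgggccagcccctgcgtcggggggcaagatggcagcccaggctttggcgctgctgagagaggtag
PSMC3: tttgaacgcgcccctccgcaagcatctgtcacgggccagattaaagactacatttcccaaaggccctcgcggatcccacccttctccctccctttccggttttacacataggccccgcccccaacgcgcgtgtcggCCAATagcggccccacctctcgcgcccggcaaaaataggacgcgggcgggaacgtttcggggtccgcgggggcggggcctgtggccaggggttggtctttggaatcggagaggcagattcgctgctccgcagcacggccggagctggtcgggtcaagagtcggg
PSMB9: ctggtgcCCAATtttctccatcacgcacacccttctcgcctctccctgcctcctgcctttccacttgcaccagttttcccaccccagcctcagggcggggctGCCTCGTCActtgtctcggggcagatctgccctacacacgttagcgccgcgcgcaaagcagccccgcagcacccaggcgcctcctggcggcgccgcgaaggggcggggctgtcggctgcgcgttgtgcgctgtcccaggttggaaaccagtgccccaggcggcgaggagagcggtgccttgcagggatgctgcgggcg
ZFAND2A: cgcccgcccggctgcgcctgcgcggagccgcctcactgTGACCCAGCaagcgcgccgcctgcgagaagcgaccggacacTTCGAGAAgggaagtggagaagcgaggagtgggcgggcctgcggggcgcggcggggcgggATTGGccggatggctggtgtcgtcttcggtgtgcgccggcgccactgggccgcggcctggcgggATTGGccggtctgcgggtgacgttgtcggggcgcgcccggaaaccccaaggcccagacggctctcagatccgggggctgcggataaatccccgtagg

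In these windows the heat shock letters were TTCAGGAA in PSMD5, starting 45 bases before the start, and TTCGAGAA in ZFAND2A, 171 bases before it, and neither PSMC3 nor PSMB9 held them. The table of promoters matched 35 of the 40 proteasome genes, with 42 windows. The two-unit heat shock element was in 3 of the 42 windows (7.1%), those of PSMB5, PSMD5 and PSMD6, and in 13.5% of all 35116 windows, and the three-unit form GAANNTTCNNGAA or TTCNNGAANNTTC was in 0 of 42 and in 0.5% of all. The antioxidant response element was in 15 of 42 windows (35.7%) and in 13.3% of all windows, and the CCAAT box in 45.2% and 34.6%. The heat shock letters overlap in the two-unit and three-unit forms. A match of letters describes the window and is not a binding site, and the base composition of the windows was not compared.

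The alpha ring of the core was among the brightest classes, with signals of 1737.2 to 3687.6 over its 6 measured genes. PSMA5, with the highest knockdown estimate of the ring, had signals of 1795.6 and 1765.5 in DMSO controls, 1737.2 and 1793.6 in Doxycycline controls, 1837.6 and 2036.5 under NVP-HSP990, and 1878.7 and 2138 after the knockdown. Both NVP-HSP990 arrays lay above the DMSO controls, by 0.12 (SE 0.15, 95% interval -0.22 to 0.45), and the knockdown difference was 0.051 (SE 0.15) with overlapping arrays. PSMA3, at the other end of the ring, had the narrowest span of the set, with a highest signal 1.18 times the lowest. Its signals were 2342.3 and 2290.7 in DMSO controls, 2158 and 2538.1 in Doxycycline controls, 2400.3 and 2333.4 under NVP-HSP990, and 2286.9 and 2292.4 after the knockdown. Although both arrays after the knockdown lay below both before it, the difference was -0.047 (SE 0.16). PSMA1 had the lowest NVP-HSP990 estimate of the ring, -0.20 (SE 0.21, 95% interval -0.66 to 0.27), from signals of 3229.7 and 3089.7 with DMSO and of 3138.9 and 2419.1 with NVP-HSP990. The arrays of PSMA1 overlapped, with the second array low in both shHSF1 groups.

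Among the constitutive beta subunits, PSMB5, PSMB6 and PSMB7 carry the proteolytic sites with chymotrypsin-like, caspase-like and trypsin-like activity. PSMB5 signals were 2121.3 and 1855 in DMSO controls, 1938.3 and 1816.9 in Doxycycline controls, 1982.8 and 1754.7 under NVP-HSP990, and 1665.9 and 1787.9 after the knockdown, giving -0.11 (SE 0.16, 95% interval -0.46 to 0.23) with the knockdown. For PSMB6 the knockdown difference was 0.047 (SE 0.16) and for PSMB7 0.039 (SE 0.19). The 3 proteolytic subunits thus had estimates on both sides of 0, all smaller than their errors. PSMB4, which has no proteolytic site, was measured at 4186.9 and 4393 in DMSO controls, 4234.6 and 5385.5 in Doxycycline controls, 3915.6 and 3735.6 under NVP-HSP990, and 3907.1 and 4163.2 after the knockdown. Its NVP-HSP990 arrays lay below its DMSO controls, by -0.16 (SE 0.18, 95% interval -0.57 to 0.24), and its second Doxycycline control was the highest signal of any proteasome gene.

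Interferon-gamma is known to replace the proteolytic subunits with PSMB8, PSMB9 and PSMB10, which form the immunoproteasome and favour peptides for antigen presentation. Their signals, 92.9 to 316.9, were above the array medians of 10.6 to 14.2, and the 3 genes ranked the groups differently. PSMB9 had signals of 149.3 and 134.1 in DMSO controls, 184.9 and 183.5 in Doxycycline controls, 160.7 and 99.3 under NVP-HSP990, and 119.8 and 92.9 after the knockdown. Both Doxycycline controls were above all the other 6, the second array of each shHSF1 group was low, and the arrays before and after the knockdown overlapped. With both NVP-HSP990 and the knockdown, PSMB9 stood -0.72 from the Doxycycline control (SE 0.23, interval -1.24 to -0.20; limma, unadjusted p = 0.0111, adjusted p = 0.113), which did not pass the test. The knockdown, with NVP-HSP990 in both groups, gave -0.23 (SE 0.23, 95% interval -0.75 to 0.29), and Doxycycline in shNTC cells gave 0.35 (SE 0.23, 95% interval -0.17 to 0.86).

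PSMB8 had signals of 259.4 and 198.8 in DMSO controls, 207.8 and 134.8 in Doxycycline controls, 208.2 and 242.6 under NVP-HSP990, and 181.2 and 316.9 after the knockdown, the widest span of the set at 2.35 times from lowest to highest. The extremes were the second Doxycycline control and the second array after the knockdown, and in every comparison its arrays overlapped. Its difference was 0.09 (SE 0.28, 95% interval -0.53 to 0.71) with the knockdown and 0.48 (SE 0.28, 95% interval -0.14 to 1.10) in the combination. PSMB10, at 177.6 and 158.2 in DMSO controls, 176.8 and 129.7 in Doxycycline controls, 165.5 and 131.8 under NVP-HSP990, and 130 and 157.1 after the knockdown, had -0.043 (SE 0.21) with the knockdown and -0.17 (SE 0.21) with NVP-HSP990. The arrays of PSMB10 overlapped in every comparison. Its DMSO controls lay above its arrays after the knockdown, groups that were not compared directly.

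The wider list of antigen presentation and interferon-gamma response genes, which holds the peptide transporter, class I molecules and interferon-induced genes, had 16 of 20 genes tested. None was called in any of the 5 comparisons by limma. Of all genes tested, 2.84% were called with the knockdown, 0.221% with NVP-HSP990, 0% with Doxycycline, 5.83% in the combination and 0.789% in the interaction. At an unadjusted p under 0.05 the list had 0 with the knockdown (15.3% of all genes), NVP-HSP990 (4.96%) or Doxycycline (2.41%). In the combination it had 1 (19.5%), and in the interaction 1 (10.6%). Its median log2 difference was 0.024 with the knockdown and -0.11 in the combination.

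**Figure D3:**
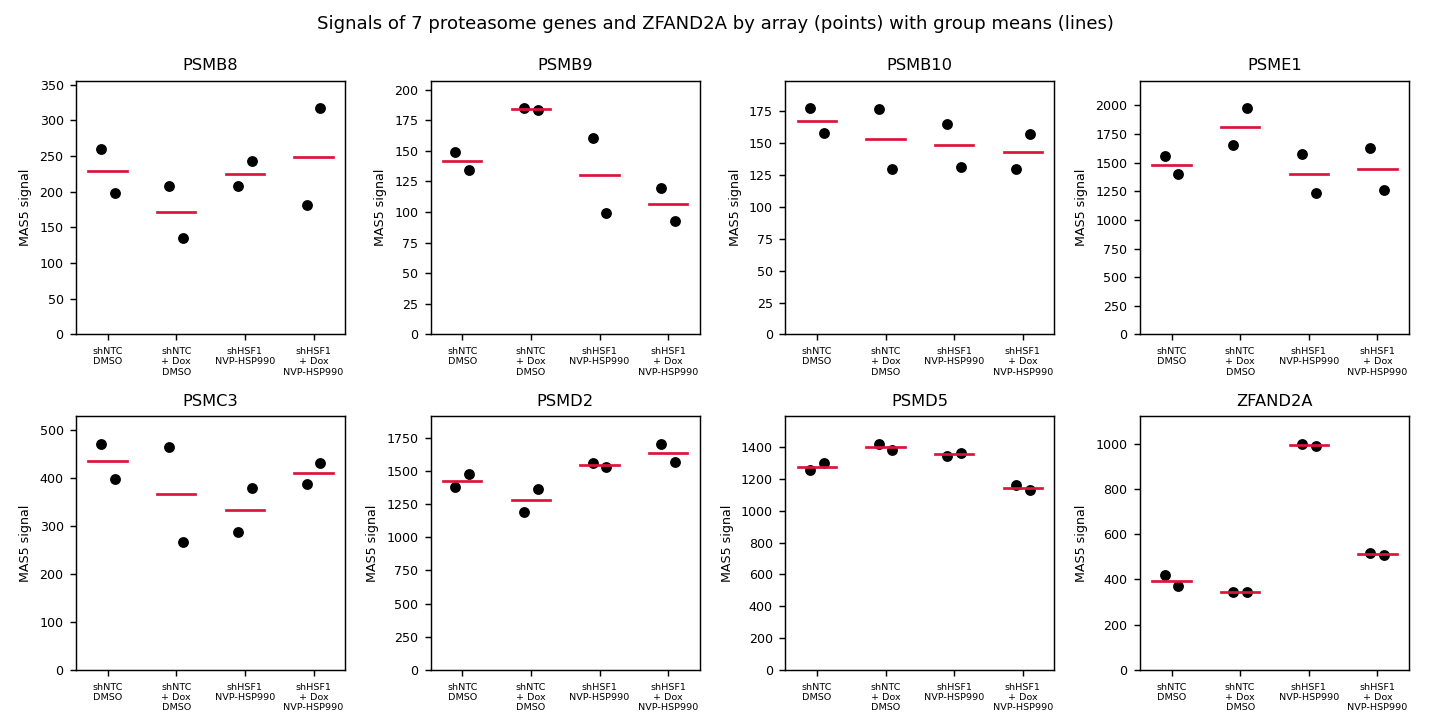
MAS5 signal on a linear axis from 0 for the 3 immunoproteasome genes, PSME1, PSMC3, PSMD2, PSMD5 and ZFAND2A in each group (points, the 2 arrays; lines, group means). ZFAND2A at 1001.4 and 991.4 with NVP-HSP990 stands clear of its other groups, PSMD5 is lowest after the knockdown at 1159.8 and 1131, and PSMB8 and PSMC3 differ within a group as much as between groups.

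The ATPases of the base form the ring that unfolds substrates. PSMC3 had signals of 471.1 and 397.3 in DMSO controls, 463.9 and 267.2 in Doxycycline controls, 286 and 379.1 under NVP-HSP990, and 387.5 and 431 after the knockdown. Its first NVP-HSP990 array and its second Doxycycline control were low, and the Doxycycline controls differed by 0.76 on the log2 scale. NVP-HSP990 stood -0.38 (SE 0.24, 95% interval -0.92 to 0.16) from DMSO and the knockdown 0.30 (SE 0.24, 95% interval -0.24 to 0.84) from its control, with arrays apart in both comparisons, and the interaction of 0.58 (SE 0.34, 95% interval -0.18 to 1.35) had an adjusted p of 0.633 in limma. PSMC1, with the lowest knockdown estimate of the ATPases, had -0.10 (SE 0.19). The remaining ATPases, PSMC2, PSMC4 and PSMC6, had knockdown differences of -0.0036, 0.14 and 0.0072.

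PSMD1 and PSMD2 are the large scaffolds of the base, and PSMD4 and ADRM1 are its ubiquitin receptors. PSMD2 signals were 1380 and 1476.2 in DMSO controls, 1192.9 and 1363 in Doxycycline controls, 1560.7 and 1527.5 under NVP-HSP990, and 1707.2 and 1568.5 after the knockdown. Both shHSF1 groups lay above both shNTC groups, with the highest array after the knockdown. In the combination PSMD2 differed by 0.36 (SE 0.15, interval 0.028 to 0.68; limma, unadjusted p = 0.036, adjusted p = 0.216), and by 0.11 (SE 0.15, 95% interval -0.22 to 0.44) between NVP-HSP990 and DMSO. The combination value was 0.26 without the first Doxycycline control and 0.45 without the second. PSMD4 had a knockdown difference of -0.048 (SE 0.21), and ADRM1 of -0.028 (SE 0.20).

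In the lid, PSMD14 is the deubiquitinase that removes the ubiquitin chain. Its signals were 2841 and 3273.2 in DMSO controls, 2567.1 and 3880.7 in Doxycycline controls, 2994.7 and 2674.4 under NVP-HSP990, and 2461.8 and 2607.8 after the knockdown. Both arrays after the knockdown lay just below both before it, by -0.16 (SE 0.21, 95% interval -0.62 to 0.30), while its Doxycycline controls at 2567.1 and 3880.7 enclosed most of the others. PSMD3 had the highest knockdown estimate of the lid, 0.28 (SE 0.23, 95% interval -0.22 to 0.79), from 292.2 and 272 before and 330.9 and 363.8 after. The DMSO arrays of PSMD3, at 402.1 and 241.3, enclosed all of these. PSMD11 had the largest NVP-HSP990 estimate of the lid, 0.17 (SE 0.15, 95% interval -0.17 to 0.51), with both arrays above those with DMSO.

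PSMD5, PSMD9 and PSMD10 are chaperones that hold the ATPases during assembly of the base. PSMD5 signals were 1255.1 and 1299.5 in DMSO controls, 1423.1 and 1383.5 in Doxycycline controls, 1347.7 and 1362.6 under NVP-HSP990, and 1159.8 and 1131 after the knockdown. The arrays of each group were close, at most 0.050 apart on the log2 scale, and the arrays after the knockdown were the lowest of the 8. The knockdown difference was -0.24 (SE 0.14, 95% interval -0.54 to 0.064) (limma, unadjusted p = 0.11, adjusted p = 0.461), and the difference in the combination was -0.29 (SE 0.14, 95% interval -0.59 to 0.015). With the mean of all PSMD5 probe sets in place of the brightest, these values were -0.13 and -0.10. The other PSMD5 probe set in that mean read 0.5 to 2.5 over the 8 arrays and did not pass the filter. PSMD10 had -0.24 (SE 0.18) with the knockdown, from 1059.6 and 896.8 to 829.9 and 820.5. PSMD9 went the other way, at 0.21 (SE 0.18, 95% interval -0.20 to 0.61), with signals of 496.4 and 410.8 before and 574.7 and 478.6 after. None of the 3 base chaperones passed the test.

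The core is assembled on PSMG1, PSMG2 and POMP. PSMG1 had signals of 814.2 and 888.1 in DMSO controls, 702.8 and 933.4 in Doxycycline controls, 920.4 and 911.9 under NVP-HSP990, and 1071 and 958.8 after the knockdown, with both arrays after the knockdown above the rest and a knockdown difference of 0.14 (SE 0.17). POMP, at 2662.6 and 3254.1 in DMSO controls, 2802.5 and 3843.2 in Doxycycline controls, 2968.8 and 3484.4 under NVP-HSP990, and 2848.3 and 3104.9 after the knockdown, had -0.11 (SE 0.20, 95% interval -0.56 to 0.33). All 3 core chaperones had an NVP-HSP990 estimate above 0, of 0.11 to 0.13, as had all 3 base chaperones, of 0.070 to 0.13. The estimate was above 0 for 52.2% of all genes tested, and none of these chaperones passed the test.

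Of the activators, which cap the core in place of the 19S particle, PSME1 forms a ring with PSME2, PSME3 acts in the nucleus, and PSME4 is a single large chain. PSME1 signals were 1561.4 and 1397.3 in DMSO controls, 1655.7 and 1976 in Doxycycline controls, 1576.5 and 1234.5 under NVP-HSP990, and 1626.2 and 1258.3 after the knockdown. Its Doxycycline controls lay above all the others, so the Doxycycline difference in shNTC cells was 0.29 (SE 0.19, 95% interval -0.13 to 0.71) and that of the combination -0.34 (SE 0.19, 95% interval -0.75 to 0.084). Knockdown differences were 0.036 for PSME1, 0.062 for PSME3 and 0.054 for PSME4, with standard errors of 0.19, 0.16 and 0.19. These are values of the brightest probe sets. Tested singly, the others gave 0.33, 0.039 and 0.33 for PSME3 and 0.15 and 0.049 for PSME4, and none was called.

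The groups of arrays did not overlap for 6 proteasome genes above and 6 below in the knockdown, where 21.5% and 21.8% of all genes tested were above and below. With NVP-HSP990 there were 6 above (17.6%) and 4 below (15.6%), with Doxycycline 3 above (11.8%) and 4 below (16.7%), and in the combination 8 above (23.7%) and 5 below (20.9%). The 6 above in the knockdown were PSMC3, PSMC4, PSMD2, PSMD3, PSMD12 and PSMG1, and the 6 below were PSMA3, PSMB2, PSMD5, PSMD10, PSMD14 and PSMG2. Each of these 8 shares of the 40 genes is below its background, several of them by few genes. The comparisons share groups, so the 8 shares are not independent, and their distance from the background was not tested.

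The largest gap between the 2 arrays of a group, 0.76 for PSMC3, was of the size of the largest difference between groups, -0.72 for PSMB9. For PSMD5 and PSMD2 the gaps within groups were smaller than their differences in the combination, and a gap between single arrays varies more than a difference between means of 2. In the Doxycycline controls the second array was above the first for 29 of 40 proteasome genes, by a median of 0.25 on the log2 scale, where the median gap of all genes tested was -0.024. Among the NVP-HSP990 cells the second array was lower for 31 of 40, with a median gap of -0.13 (all genes, -0.016). The medians were 0.017 in the DMSO controls and -0.0004 after the knockdown. More than a 1.2-fold gap was seen for 26 of 40 proteasome genes in the Doxycycline controls (46.2% of all genes), for 3 in the DMSO controls (25.7%), for 11 under NVP-HSP990 (43.1%) and for 8 after the knockdown (41.5%).

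The second Doxycycline control, the one with the ACTB ratio of 46.8, held the highest signal of 22 of the 40 proteasome genes, while 15.2% of all genes tested were highest there. The first array of the same group held the lowest signal of 15 (13.8% of all genes). PSMA2 was 2407.7 in the first and 3442.6 in the second, and PSMD4 was 2480.8 and 3779.1. The second array was the lower for 11 of the 40, among them PSMC3 at 463.9 and 267.2, PSMB8 at 207.8 and 134.8 and PSMB5 at 1938.3 and 1816.9. Without the first of these arrays the median of the 40 genes was 0.14 for Doxycycline in shNTC cells and -0.18 in the combination, and without the second it was -0.10 and 0.085, and none was called either way. As a median deviation from each gene's mean, the 40 genes stood at -0.12 and 0.16 in the Doxycycline controls (ACTB ratios 4.73 and 46.8). They stood at 0.054 and -0.098 under NVP-HSP990 (ratios 18.9 and 8.27) and at -0.019 and 0.033 in the DMSO controls (6.66 and 13.7). After the knockdown the values were -0.0121 and -0.0145 (10.3 and 5.63). The relation of these medians to the ratio was not tested. With the ACTB ratio as a covariate, a fit chosen after the data were seen, 0 of 40 were called in each of the 5 comparisons.

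**Figure D4:**
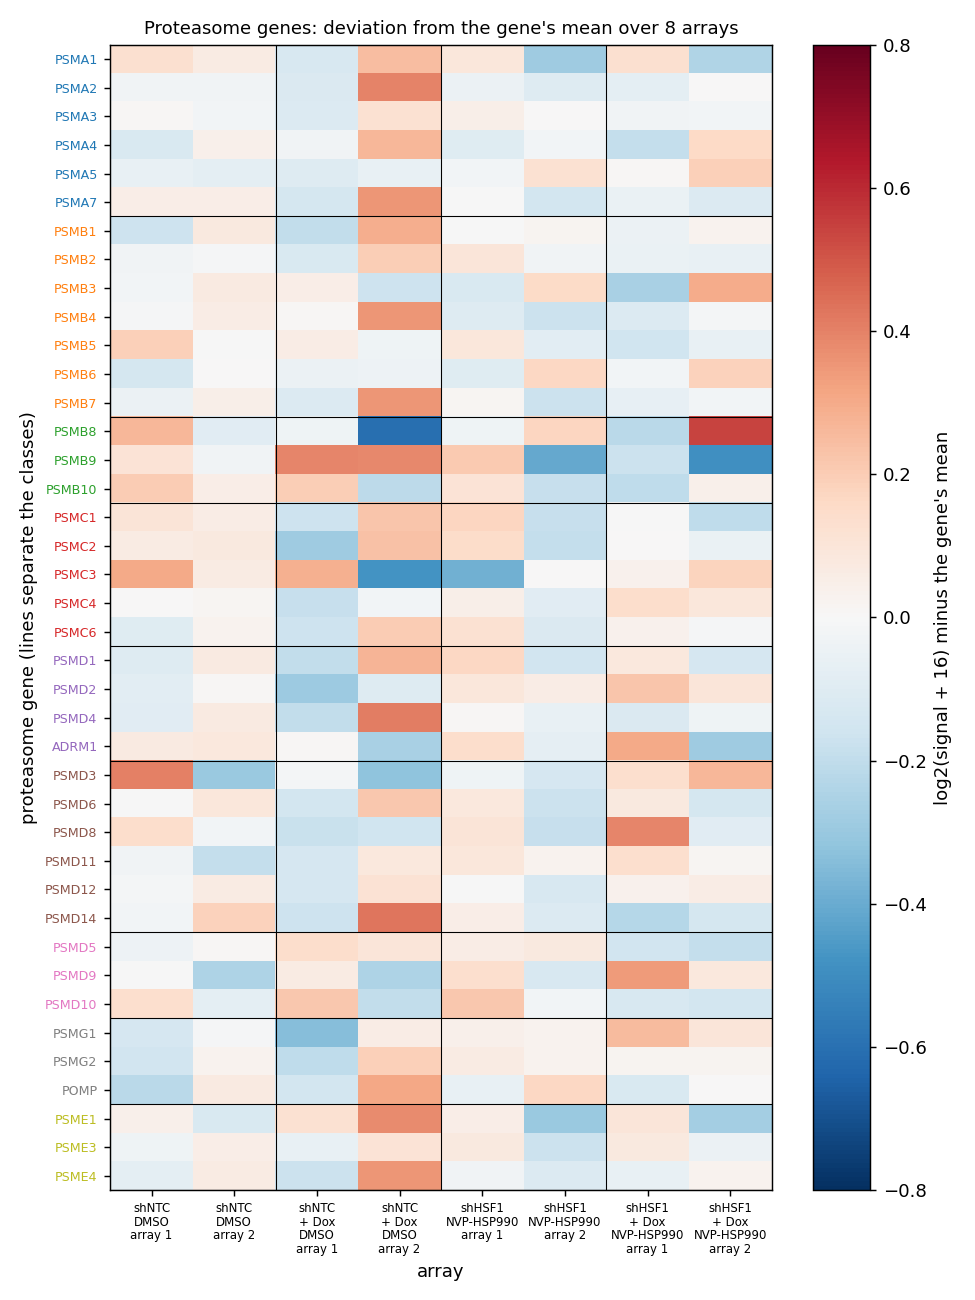
Deviation of log2(signal + 16) from the gene's mean over the 8 arrays, for the 40 proteasome genes (rows, with lines between the classes) and the arrays of each group (columns). The second Doxycycline control is red for many core and 19S genes and blue for PSMB8 and PSMC3, and for many genes the 2 columns of a group differ in colour.

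**Figure D5:**
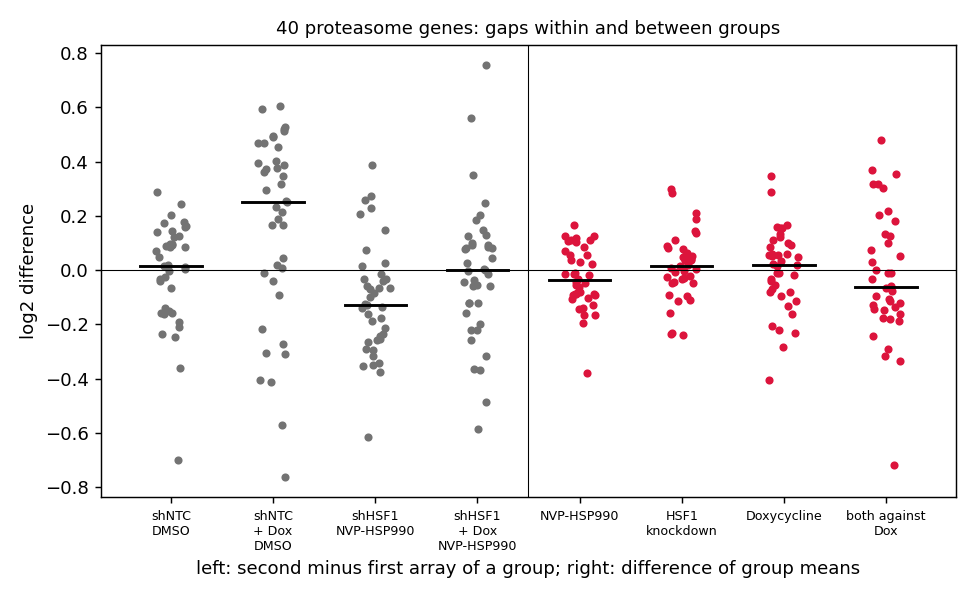
Log2 differences of the 40 proteasome genes within groups (grey, second minus first array) and between group means (red, in 4 comparisons), with the median as a line. The within-group gaps reach -0.76 and 0.76, and the differences between groups -0.72 and 0.48.

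Of the other genes of the pathway, which cover further assembly factors, shuttling receptors, proteasome-bound deubiquitinases and the regulators NFE2L1 and NGLY1, 22 of 27 were tested. ZFAND2A, an arsenite-inducible protein that binds the proteasome, was the one gene called, with NVP-HSP990, with the knockdown and in the combination. The shares of all genes called in these were 0.221%, 2.84% and 5.83%. No gene of the list was called with Doxycycline (0% of all genes) or in the interaction (0.789%). ZFAND2A had signals of 417.8 and 371.5 in DMSO controls, 342.5 and 345.8 in Doxycycline controls, 1001.4 and 991.4 under NVP-HSP990, and 518.7 and 510.1 after the knockdown. ZFAND2A rose by 1.30 with NVP-HSP990 (SE 0.14; limma, adjusted p = 0.00338) and fell by 0.93 on the log2 scale with the knockdown (SE 0.14, adjusted p = 0.0071). Without the second shNTC array with DMSO the adjusted p of the rise was 0.118, and without the second array after the knockdown that of the fall was 0.054. The call of the fall was also lost with only the arrays compared (adjusted p = 0.0503), in the methods' t-test (0.324) and when a 2-fold difference was required, and that of the rise in the methods' t-test (0.685). The interaction of -0.75 was not called (limma, adjusted p = 0.154). The level after the knockdown stayed above the Doxycycline control by 0.56 (SE 0.14, adjusted p = 0.0473), a call that was lost without any one of the 8 arrays (adjusted p 0.0587 to 0.183) and under 9 of 14 other alternatives.

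The median log2 difference of these 22 genes was -0.024 with the knockdown and -0.0097 with NVP-HSP990, and the other members named here were not called. NFE2L1 signals were 2061.6 and 1605.6 in DMSO controls, 1324.8 and 1482.4 in Doxycycline controls, 1701.3 and 1537 under NVP-HSP990, and 1404.8 and 1174.1 after the knockdown. Its knockdown difference was -0.33 (SE 0.17, 95% interval -0.72 to 0.059), with both arrays after the knockdown below both before it. Doxycycline in shNTC cells gave -0.37 (SE 0.17, 95% interval -0.76 to 0.015), with both Doxycycline controls below both DMSO controls. The NFE2L1 interaction was 0.044 (SE 0.25, 95% interval -0.50 to 0.59), so a difference between the hairpin lines in either direction remains possible. The lines also differ in the inhibitor, and the cause of these values was not tested. UBQLN4, a shuttling receptor, differed by -0.48 with the knockdown (SE 0.16; limma, unadjusted p = 0.015, adjusted p = 0.178), from 879.4 and 791.3 to 678.2 and 521.6. PSMG4, a further core assembly chaperone, differed by 0.52 in the combination (SE 0.19; unadjusted p = 0.0198, adjusted p = 0.155 from limma).

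Single probe sets gave the same count. Of 73 proteasome probe sets, 70 passed the filter, and 0 were called in any comparison when all 24631 were tested singly (1.88% of all were called with the knockdown, 0.134% with NVP-HSP990, 0% with Doxycycline, 3.98% in the combination and 0.463% in the interaction). The unadjusted p was under 0.05 for 0, 1, 1, 5 and 1 of the proteasome probe sets in the same order, beside 14%, 4.45%, 2.28%, 18.4% and 9.37% of all probe sets. For the 19 genes with several probe sets the estimates of one gene differed by a median of 0.14 with the knockdown, and at most by 0.39, for PSMB7. The second PSMB7 probe set was dim, with signals of 15.9 to 41 where the brightest read 2979 to 4306.6. The probe sets of a gene differed more in the other comparisons, with medians of 0.20 to 0.28 and largest gaps of 0.63 for PSME4 with NVP-HSP990, 0.76 for PSMD11 with Doxycycline, 0.66 for PSMC2 in the combination and 0.83 for PSMD11 in the interaction.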

How the data were processed

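Gene expression was measured in 8 samples on HG-U133 Plus2 arrays, and groups and replicate numbers were taken from the sample titles; the description fields name other cells and drugs and were not used. The deposited signal intensities were computed by the authors with MAS5 (per the submitters' processing notes, version not given), on a linear scale with equal trimmed means per array (2% trimmed at each end), and were not normalized further. Amplified biotin-labelled cDNA was hybridized. Only probe sets that name 1 gene entered (41091 of 54675; 1801 named several genes, 11721 none and 62 were controls). For each gene the brightest probe set by mean log2 signal was taken, and a gene was tested when its signal reached the array median in at least 2 arrays, whichever the group. After 16 was added, log2 values were fitted in limma 3.58.1 (R 4.3.3) with a mean for each of the 4 groups over all 8 arrays and a variance trend (4 residual and 6.36 prior degrees of freedom). Tests were two-sided, with Benjamini-Hochberg adjustment over 12672 genes.

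The steps were tested on simulated data, where some of the known changes were not called and a bound first set on their recovery was not met. The number of arrays limits the precision. The members and lists were chosen with earlier results of these data known. Named genes were the immunoproteasome, the members of each class with the highest and lowest knockdown estimate and the largest NVP-HSP990 estimate, called genes of the pathway list, and HSF1; further members were chosen for naming once their values were known. The fits were repeated with other amounts added to the signal, no or a stricter filter, quantile normalization, median centring, all probe sets of a gene averaged or each one tested singly, no variance trend, only the arrays compared, a block for the replicate number, a required 2-fold difference, the methods' t-test, each array left out and, chosen after the data were seen, the ACTB ratio as a covariate. Promoter windows came from RefSeq (GRCh38.p14).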

Additional observations from a re-analysis of the deposited data

How the results depend on the processing

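Over the 5 comparisons and up to 22 alternatives, 107 of 108 counts of called proteasome genes were 0, as in the fits reported. The exception was the replicate block in the combination against the Doxycycline control, which called 1 gene, PSMB9 (-0.72, adjusted p = 0.0427 from limma). The labels do not say that equal numbers mark a shared culture or day, and deviations of same-numbered arrays correlated over all genes at 0.685 between the groups of the knockdown and 0.464 between the shNTC groups, at 0.198 and 0.276 for the DMSO controls against the shHSF1 groups, and at 0.0156 and 0.0232 for the Doxycycline controls against them, the first of these being the arms of the combination. With the block, calls over all genes went from 360 to 752 for the knockdown, from 28 to 44 for NVP-HSP990, from 739 to 1237 in the combination and from 100 to 279 in the interaction, and no other call of a proteasome gene was added. Without each array in turn, PSMB9 in the combination was -0.88 to -0.56 (adjusted p 0.0653 to 0.419). Of 2268 estimates of single proteasome genes under the alternatives, 130 had the opposite sign, of sizes up to 0.28 in the fits reported, and the cause was not tested. The median over the proteasome genes was -0.048 to 0.079 with the knockdown and -0.10 to 0.041 with NVP-HSP990 when arrays were left out. A fit with 1 array left in a group assumes that it varies like the others. With 2 arrays in each group, the intervals given show which sizes remain possible, and they are not a limit of detection. In the combination the intervals of PSMB9 and PSMD2 excluded 0, and neither gene was called in the fits reported.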

Other observations

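PSME3, the nuclear activator, had probe sets that differed between each other when cells after the knockdown were set against the Doxycycline controls. Its brightest probe set gave -0.010 on the log2 scale, while the other 3 gave 0.39, 0.38 and 0.49 (limma over single probe sets, unadjusted p = 0.0432, 0.0441 and 0.0137, adjusted p = 0.251, 0.254 and 0.142). The last of these had signals of 680.8 and 765 in DMSO controls, 522.9 and 647.1 in Doxycycline controls, 655.2 and 648.7 under NVP-HSP990, and 884.3 and 769.1 after the knockdown. Both arrays after the knockdown were the highest of the 8 for that probe set.

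A second probe set of PSMD11, a lid subunit, read 359.2 and 319.7 in DMSO controls and 310.7 and 134.2 in Doxycycline controls, a difference of -0.68 (unadjusted p = 0.047, adjusted p = 1 from limma). In the same Doxycycline controls the brighter probe set of PSMD11 read 1311.9 and 1525, so the second array was the lower for one probe set and the higher for the other. A second probe set of PSME4 differed by -0.50 between NVP-HSP990 and DMSO (unadjusted p = 0.0332, adjusted p = 1), with signals of 426.3 and 403.9 against 326.7 and 256.6, while the brighter probe set of PSME4 gave -0.062.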
